A study of Mus musculus with 6 samples.

Results

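Complex I, the NADH:ubiquinone oxidoreductase of the mitochondrial inner membrane, was followed through the nuclear genes that encode its subunits and the proteins that assemble it. The genes were the rows of the deposited table whose symbol is on a list of 35 subunits and 11 assembly factors. All 46 were found among 24972 gene rows, and all 46 had a mean normalized count of at least 10 over the libraries, the minimum for testing. RNA came from ventricular cardiomyocyte preparations of MX1gfp mice, which carry a green fluorescent protein reporter at the interferon-stimulated gene Mx1. One group of 3 mice received phosphate buffered saline (vehicle) and the other group of 3 received doxorubicin, an anthracycline cancer drug that is toxic to the heart, at 25 mg per kg in a single intraperitoneal injection. Both groups share the reporter genotype and were sampled 48 hours after injection. The labels name neither the sex nor the age of the animals. Myocytes were enriched by settling under gravity and were not sorted, so other heart cells can remain in each preparation.

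Complex I takes electrons from NADH, passes them along a chain of iron-sulphur clusters to ubiquinone, and pumps protons across the inner membrane. It is L-shaped, with a matrix arm that carries the flavin and the iron-sulphur clusters and a membrane arm that pumps protons. Core subunits, conserved from bacteria, do the chemistry, and accessory subunits surround and stabilise them. Assembly factors help to build the enzyme in modules and are not part of the finished complex. The heart depends on oxidative phosphorylation and is rich in complex I. The core subunits of the membrane arm are encoded by mitochondrial DNA. The table held 0 rows with the mt- prefix of such genes, so those subunits were not analysed here.

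Every one of the 46 genes had a negative difference, doxorubicin below vehicle, as did 50.4% of all genes tested. Differences are given as doxorubicin minus vehicle on the log2(normalized count + 1) scale. They ran from -1.47 for Ndufb10 to -0.25 for Ndufs5, with a median of -0.91, whereas the median over all 12477 genes tested was -0.0046. In 42 of the 46 genes all 3 doxorubicin values lay below all 3 vehicle values, and this was so for 22.6% of all genes tested. A log2 difference of -1 or lower was seen in 13 of the 46 and in 6.39% of all genes. With limma and Benjamini-Hochberg adjustment over all genes, 0 of the 46 passed an adjusted p of 0.05, as did 0.0% of all genes, and the members' adjusted p ran from 0.0859 to 0.413. At an unadjusted p under 0.05, 41 of the 46 were lower, against 19.3% of all genes. No single gene is therefore called changed with all 6 libraries in this fit, which uses no library weights. The values below describe sizes and overlaps. Fewer cardiomyocytes in a preparation and less of these transcripts per cardiomyocyte cannot be told apart in RNA from bulk preparations.

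The 3 doxorubicin libraries differed in how far they departed from vehicle. Against the vehicle mean, the median change of the 46 genes was -0.45 in replicate 1, -0.81 in replicate 2 and -1.46 in replicate 3. Replicate 3 held the lowest value of the 6 libraries for 44 of the 46 genes, as it did for 30.8% of all genes tested. Replicate 1, the mildest, still lay below every vehicle library in 44 of the 46 genes, against 34.6% of all genes. When replicate 1 was left out, limma called 43 of the 46 genes lower at an adjusted p under 0.05, namely 32 subunits and all 11 assembly factors, and 21.8% of all genes were called lower in that fit. The 3 that were not called were Ndufa7, Ndufa3 and Ndufs5, with adjusted p of 0.125, 0.112 and 0.0548. Leaving out any other single library in place of doxorubicin replicate 1 called 0 of the 46. With limma's library weights, which gave replicate 1 a weight of 0.277, 40 of the 46 were called lower, against 18.6% of all genes.

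**Figure D1:**
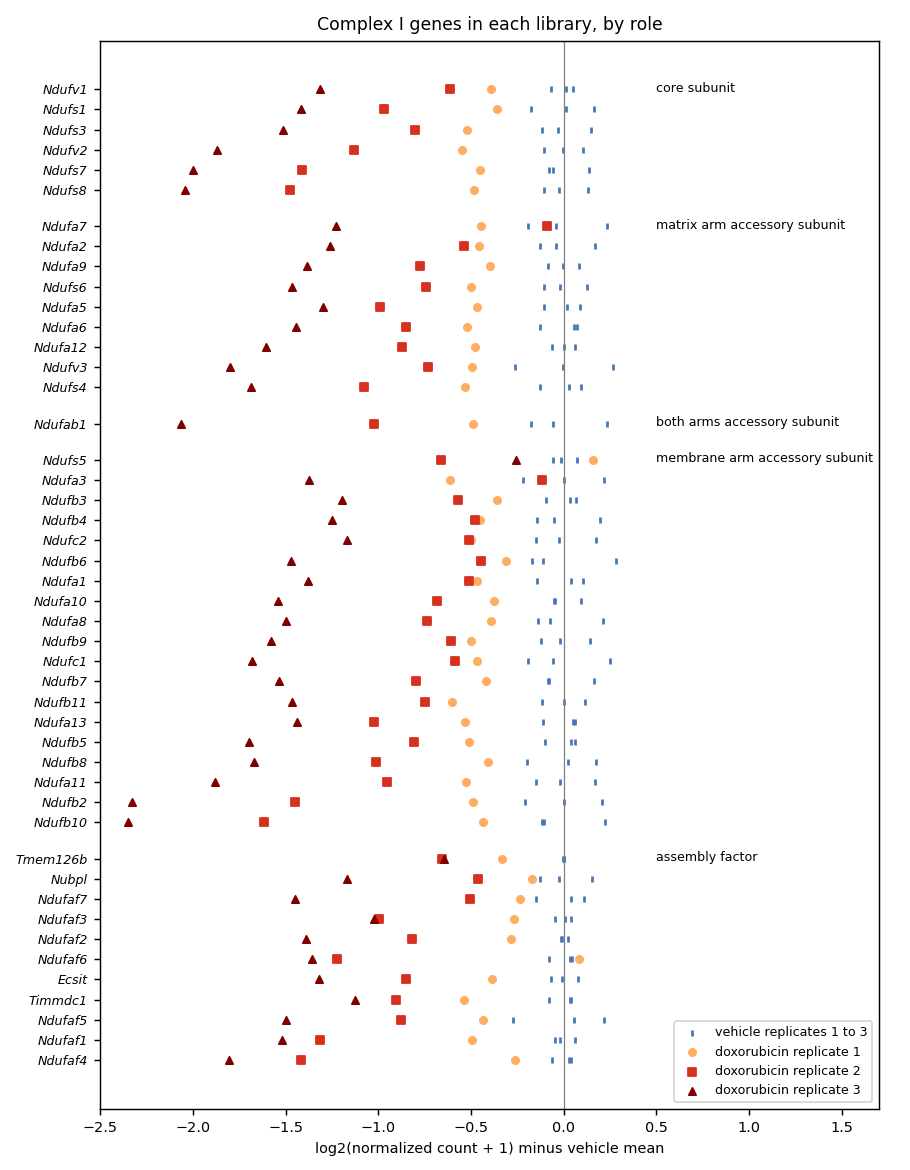
Each row is 1 of the 46 complex I genes, grouped by role, and each symbol is 1 library, placed on the horizontal axis by its log2(normalized count + 1) minus the vehicle mean of that gene. Circles, squares and triangles (doxorubicin replicates 1, 2 and 3) lie left of the ticks (vehicle) in 42 rows, and the 4 rows with overlap are Ndufa7, Ndufa3, Ndufs5 and Ndufaf6.

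Vehicle libraries rested on about 7690000 to 11500000 reads and doxorubicin libraries on about 3660000 to 6190000, judged by how far apart the lowest values lie, so that depth and treatment cannot be told apart. At this depth the least abundant member, Nubpl, rested on about 24 reads in doxorubicin replicate 3. Doxorubicin replicate 1 resembled the vehicle libraries (Spearman correlation across tested genes 0.977 to 0.982), and replicate 3 least (0.860 to 0.876). The cardiomyocyte identity of the preparations was checked with 20 contractile genes, none of which was at 0, and all 20 were lower after doxorubicin. Their summed normalized count ran from 776211 to 879011 in the vehicle libraries and was 658408, 258898 and 214179 in doxorubicin replicates 1 to 3. Several marker lists of other cells had higher sums after doxorubicin. All 10 macrophage markers were higher, 9 without overlap (against 19.2% of all genes), and their sum ran from 2312 to 2573 in vehicle and from 3891 to 15432 in doxorubicin libraries. The 6 neutrophil markers summed to 18.7 to 37.0 and 78.2 to 615, with Retnlg at 0 in all vehicle libraries. The 9 fibroblast markers summed to 6734 to 8826 and 9365 to 24166, and 8 of the 9 were higher, 4 without overlap. Dcn held 18072 of the fibroblast sum in replicate 2 and 11326 in replicate 3, and Col3a1 was lower there (740 and 1184, against 1412 to 2268 in vehicle). The 9 endothelial markers summed to 18122 to 25161 and 33569 to 46174, with 8 higher, 6 of them without overlap, and Kdr lower (-0.26 on the log2 scale). The 7 mural markers overlapped between groups, at 9607 to 14338 and 11067 to 13127. So did the 8 lymphocyte markers (26.6 to 49.0 and 14.4 to 90.2) and the 5 erythroid markers (1211 to 2104 and 250 to 9027, with Hbb-bs at 0 throughout). The part of these markers in the lower complex I values was not tested.

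Since the members were lower together, their promoters were searched for motifs, in RefSeq windows of GRCm38.p6 from 250 bases before to 50 after the annotated start. Windows were found for 42 of the 46 genes, which lie on 17 chromosomes. Both strands were searched. The YY1 core AAGATGGCG was in 6 of the 42 windows (14.3%), against 3.26% of 9805 tested genes with a window and 1.49% of all 27025. The NRF1 core GCATGCGC was in 5 windows (11.9%), against 5.47% of tested and 2.80% of all genes. The ETS core CCGGAAG, bound by GABP, was in 7 (16.7%), against 18.2% and 9.12%. The ERR core AAGGTCA was in 3 (7.14%, against 3.01% and 4.66%), and the GC box GGGCGG in 23 (54.8%, against 64.7% and 35.9%). None of the first 4 cores was in 21 of the 42 windows. No motif contains another on either strand, and a match describes the letters only.

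The YY1 core matches are shown because they share a position that the list did not use. Each stretch of 30 bases is given 5′ to 3′ on the gene's strand, with the match in capitals. In all 6 the ATG inside the match is the annotated start codon. The searched letters themselves contain ATG, and the windows reach past the annotated start. How often a match lies over the start codon was not counted for the other tested genes. This position therefore cannot be read as particular to complex I genes.
Ndufa9, chr6:126849096-126849125, minus strand: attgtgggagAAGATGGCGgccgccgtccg
Ndufc1, chr3:51408914-51408943, minus strand: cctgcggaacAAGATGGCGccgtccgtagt
Ndufs4, chr13:114388045-114388074, minus strand: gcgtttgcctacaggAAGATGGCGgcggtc
Ndufs6, chr13:73328433-73328462, minus strand: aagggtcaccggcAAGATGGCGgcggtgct
Ndufs7, chr10:80249463-80249492, plus strand: ggccgaggccAAGATGGCGgcgctggcggg
Tmem126b, chr7:90475959-90475988, minus strand: gtgaggcgctAAGATGGCGgcgtcccagcg
The matches begin between 18 bases (Tmem126b) and 36 bases (Ndufs4) into the transcript, counting the annotated start as 1. The 6 genes had log2 differences from -1.29 (Ndufs7) to -0.55 (Tmem126b) with a median of -0.91, and the 36 other genes with a window had a median of -0.92. These medians lie close together and no test of their difference was made.

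The core subunits of the matrix arm carry the electron path. Ndufv1, which binds NADH and the flavin, had 5378, 5086 and 5519 normalized counts across vehicle replicates 1 to 3 and 4063, 3484 and 2141 across doxorubicin replicates 1 to 3. Its group means were 5328 ± 221 and 3230 ± 986 (SD, n = 3 in each group), a log2 difference of -0.77 (SE 0.27, limma adjusted p 0.0961). This was the smallest difference among the 6 core genes, and its groups did not overlap. Ndufv2, the iron-sulphur partner of Ndufv1, had 6023, 6478 and 5610 in vehicle and 4127, 2755 and 1649 in doxorubicin libraries, a log2 difference of -1.18 (SE 0.33, adjusted p 0.0859). Ndufs1, the large subunit that holds several clusters between the flavin site and the rest of the chain, had 5567, 6337 and 7041 and then 4906, 3205 and 2353 (-0.92, SE 0.30, adjusted p 0.0878). In all 3 genes the doxorubicin libraries stood in the same order, with replicate 1 highest and replicate 3 lowest.

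Ndufs7 and Ndufs8, which carry the last clusters before ubiquinone, showed the largest differences of the core group. Ndufs7, one of the genes with the YY1 core over its start codon, had 2953, 2537 and 2583 in the vehicle libraries and 1967, 1010 and 669 in the doxorubicin libraries, a log2 difference of -1.29 (SE 0.36, adjusted p 0.0859). Ndufs8 had 2412, 2162 and 2041 and then 1574, 791 and 532, a log2 difference of -1.33 (SE 0.36, adjusted p 0.0859). In doxorubicin replicates 2 and 3 they stood at 37.5% and 24.9% (Ndufs7) and 35.9% and 24.1% (Ndufs8) of their vehicle means, where Ndufv1 stood at 65.4% and 40.2%. In replicate 1 the 3 genes were close together, at 73.1%, 71.4% and 76.3%. Ndufs3, a core subunit of the ubiquinone-binding module without a cluster, was intermediate, with 3518, 3105 and 2929 and then 2208, 1817 and 1112 (-0.95, SE 0.27, adjusted p 0.0859). None of the 6 core genes overlapped between groups, where 22.6% of all genes tested were lower without overlap.

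Of 9 accessory subunits of the matrix arm, all were lower and 8 had groups without overlap (against 22.6% of all genes tested). Their median log2 difference was -0.92. Ndufs4, a late-joining subunit whose loss causes a Leigh-like disease in mice and whose start codon lies in a YY1 core, had the largest difference, with 2078, 1986 and 1780 in vehicle and 1343, 922 and 604 in doxorubicin libraries (-1.10, SE 0.28, adjusted p 0.0859). Ndufa6, the most abundant of the 9 per transcript length, had 2742, 2709 and 2381 and then 1817, 1446 and 956 (-0.94, SE 0.25, adjusted p 0.0859). Ndufv3, Ndufa12, Ndufa5, Ndufs6, Ndufa9 and Ndufa2 lay between -1.01 and -0.75. Ndufa7 had the smallest difference of the 9, and it was the one whose groups overlapped. Its values were 2246, 1855 and 1670 in vehicle and 1402, 1794 and 813 in doxorubicin libraries (-0.59, SE 0.30, adjusted p 0.188). Doxorubicin replicate 2, at 93.3% of the vehicle mean, was the library inside the vehicle range.

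Ndufab1, the mitochondrial acyl carrier protein, sits in both arms and also serves fatty acid and lipoic acid synthesis in the matrix. Its normalized count was 5236, 4285 and 3938 in vehicle and 3175, 2191 and 1065 in doxorubicin libraries. Its log2 difference was -1.19 (SE 0.38, adjusted p 0.0878) and its groups did not overlap.

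The membrane arm contributed 19 accessory subunits, all lower, with a median of -0.90 and 17 without overlap (against 22.6% of all genes tested). The largest difference of all 46 genes was that of Ndufb10, which faces the intermembrane space and needs disulphide bonds for its import. It had 5568, 4434 and 4396 in the vehicle libraries and 3531, 1552 and 934 in the doxorubicin libraries, a log2 difference of -1.47 (SE 0.44, adjusted p 0.0859). Replicates 2 and 3 stood at 32.3% and 19.5% of the vehicle mean. Ndufb2, also an accessory subunit of this arm, followed at -1.42, with replicates 2 and 3 at 36.4% and 19.7%. Ndufb9, the most abundant member per transcript length, was near the middle, with 5795, 5179 and 4813 and then 3711, 3438 and 1756 (-0.90, SE 0.31, adjusted p 0.0943). Ndufa1 and Ndufb11, the 2 members on chromosome X, had log2 differences of -0.79 and -0.94, inside the range of the others. The remaining membrane arm genes other than Ndufs5 lay between -1.12 (Ndufa11) and -0.70 (Ndufa3).

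Ndufa3 was the second member in which doxorubicin replicate 2 lay inside the vehicle range. Its vehicle values were 3090, 2662 and 2284, and its doxorubicin values were 1735, 2452 and 1025 (-0.70, SE 0.32, adjusted p 0.154). As in Ndufa7, replicate 2 was here the highest of the 3 doxorubicin libraries, in contrast to the usual order with replicate 1 highest.

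Ndufs5, a subunit on the intermembrane space side with paired cysteines, had the smallest difference and stood apart from the other 34 subunits. It had 346, 379 and 357 in the vehicle libraries and 403, 228 and 301 in the doxorubicin libraries. Replicate 1 lay above every vehicle library and replicates 2 and 3 below. The log2 difference was -0.25 (SE 0.21, adjusted p 0.413), and when each library was scaled to the same total it was 0.048, a change of sign. It was -0.049 without doxorubicin replicate 2 and -0.46 without doxorubicin replicate 1, and -0.46 with library weights (limma adjusted p 0.860, 0.0548 and 0.0682). The next smallest difference among subunits was that of Ndufa7.

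The Ndufs5 row cannot be read alone, because a processed pseudogene carries much of the same sequence. Of the 50-base windows of the Ndufs5 transcript, 41.2% also occur in BC002163, an annotated processed pseudogene on chromosome 16 (42955631 to 42955949, GRCm38), while Ndufs5 lies on chromosome 4 (123712710 to 123718186). BC002163 has its own row in the table, and it was looked up after the values of Ndufs5 had been seen. It held 1355, 1025 and 1110 in the vehicle libraries and 712, 673 and 326 in the doxorubicin libraries, more than Ndufs5 itself in every library. Its log2 difference was -1.10 (SE 0.30, adjusted p 0.0859) without overlap. The sum of both rows was 1701, 1403 and 1468 in vehicle and 1114, 900 and 627 in doxorubicin libraries. That sum differed by -0.82 on the log2 scale without overlap. Its changes in doxorubicin replicates 1 to 3 were -0.45, -0.75 and -1.27, where the subunit medians were -0.47, -0.78 and -1.50. BC002163 holds most of the sum (vehicle mean 1163 of 1524), so the sum mainly follows that row and cannot show how Ndufs5 changed. How the authors' counting divided reads between the rows is not given in the sources used here, so the Ndufs5 value is uncertain.

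**Figure D2:**
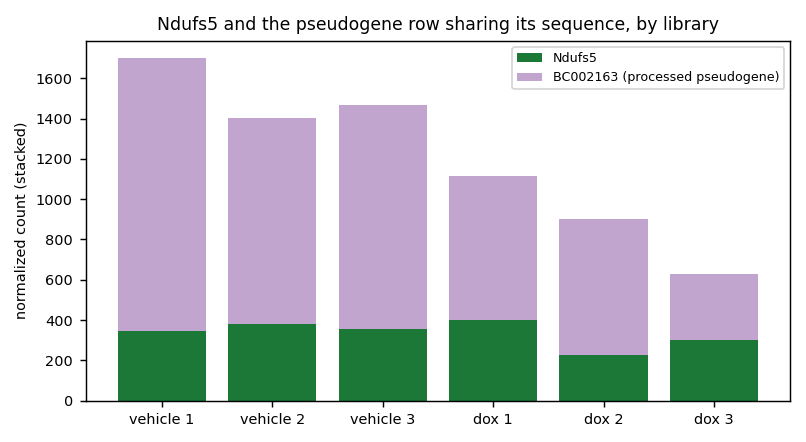
Stacked bars give the normalized count of Ndufs5 (lower part) and of the processed pseudogene BC002163 (upper part) in each of the 6 libraries. The Ndufs5 part stays between 228 and 403, while the whole bar is 1403 or more in each vehicle library and 1114 or less in each doxorubicin library.

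Other members share sequence with other genes as well, in part processed pseudogenes. Ndufb9, Ndufb2 and Ndufb8 share windows with genes whose exons overlap theirs on the same strand. These overlaps cover 28.55%, 31.87% and 19.71% of the bases of their transcripts. Of their 50-base windows, 23.36%, 24.38% and 13.47% occur in a transcript of another gene. In 18 of the 46 genes at least 1 window of 50 bases occurs in a transcript of another gene, and in 6 of them (Ndufs5, Ndufb4, Ndufs3, Ndufa12, Ndufb2 and Ndufb9) more than 20% of windows do. Ndufb4 shares 37.0% of its windows with 3 processed pseudogenes. One of these, Ndufb4c, has a row of its own, with 291, 255 and 249 in vehicle and 186, 141 and 102 in doxorubicin libraries. Ndufb4 had 2023, 1706 and 1599 and then 1294, 1267 and 744, so both rows were lower without overlap (-0.73 and -0.92). The 28 members that share no window gave a median of -0.90, and 26 of them were lower without overlap (against 22.6% of all genes tested). The exons of 14 members also overlap those of a gene on the opposite strand, for example Ndufb6 with Smim27 over 39.0% of its transcript. The use of strand in counting is not given in the sources used here, and reads of such pairs cannot be told apart.

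The assembly factors were far less abundant than the subunits. Per kilobase of transcript, the 35 subunits had vehicle means from 687 (Ndufs5) to 7475 (Ndufb9) normalized counts with a median of 3044, and the 11 assembly factors from 26.9 (Nubpl) to 480 (Ecsit) with a median of 149. In the vehicle group no assembly factor reached the lowest subunit. After doxorubicin the medians per kilobase were 1637 and 90.4. The order of levels therefore stayed separated, with Ecsit at 275 and Ndufs4, by then the lowest subunit, at 563 per kilobase.

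**Figure D3:**
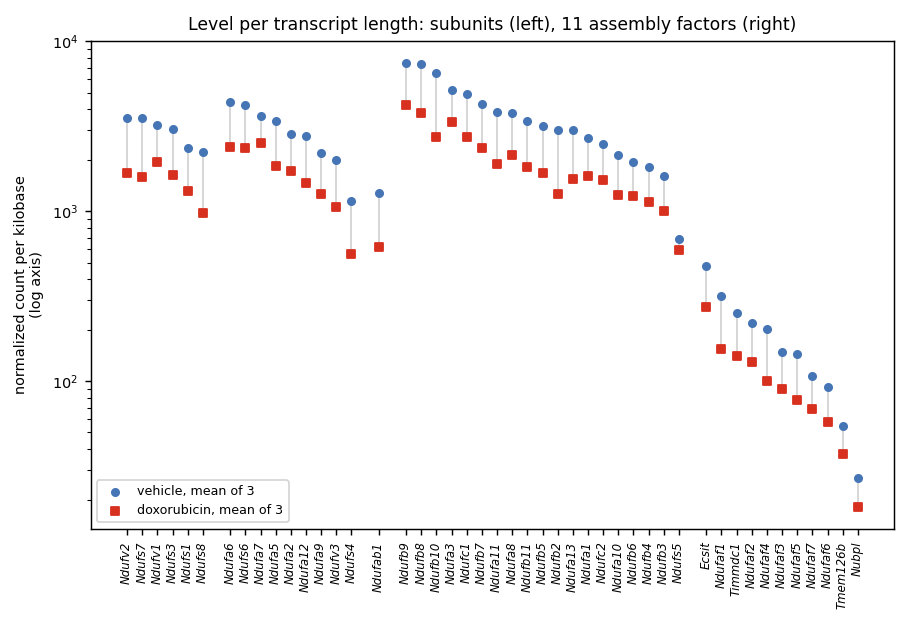
Points give the mean normalized count per kilobase of transcript (log axis) of each gene in vehicle (circles) and doxorubicin (squares), in blocks for core, matrix arm, Ndufab1, membrane arm and assembly genes. The 11 assembly factors at the right have at most 480 in vehicle, under the vehicle level of every subunit, and each square lies below its circle.

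All 11 assembly factors were lower, 10 without overlap (against 22.6% of all genes tested), with a median log2 difference of -0.83. Ndufaf1, Ecsit, Tmem126b and Timmdc1 work together in the complex that assembles part of the membrane arm. Ndufaf1 had 450, 458 and 484 in vehicle and 329, 186 and 161 in doxorubicin libraries (-1.11, SE 0.26, adjusted p 0.0859). Ecsit, which also acts in immune signalling, had 846, 765 and 798 and then 614, 444 and 321 (-0.85, SE 0.23, adjusted p 0.0859). Timmdc1 had the smallest unadjusted p of the 46 genes, 0.00158, with 374, 405 and 407 and then 272, 211 and 181 (-0.85, SE 0.18, adjusted p 0.0859). Tmem126b was the steadiest in vehicle, at 123, 124 and 124, and had 97.9, 78.0 and 78.6 in the doxorubicin libraries (-0.55, SE 0.17, adjusted p 0.0859). It carries the YY1 core shown above. Its difference was the smallest of the 11, and here replicates 2 and 3 were level.

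Ndufaf3 and Ndufaf4 bind each other and act early in building the ubiquinone-binding module. Ndufaf4 had the largest difference of the assembly factors, with 702, 748 and 753.5 in vehicle and 612, 275 and 209 in doxorubicin libraries (-1.16, SE 0.36, adjusted p 0.0863). Ndufaf3 had 228, 223 and 214 and then 184, 111 and 108 (-0.76, SE 0.22, adjusted p 0.0859). In both, replicate 1 was the doxorubicin library nearest to vehicle, at 83.3% and 82.9% of the vehicle mean, but still below every vehicle library. Replicates 2 and 3 were far below.

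Ndufaf5 hydroxylates an arginine of Ndufs7, and Ndufaf7 is an arginine methyltransferase. Ndufaf5 had 193, 137.5 and 173 and then 123, 90.25 and 58.3 (-0.94, SE 0.28, adjusted p 0.0859). Ndufaf7 had 203, 169.5 and 193 and then 159, 132 and 68.1 (-0.73, SE 0.30, adjusted p 0.131). Both had groups without overlap, by a narrow margin for doxorubicin replicate 1. Ndufaf2, a paralogue of the subunit Ndufa12, had 152, 148.5 and 148 and then 122, 84.2 and 56.4 (-0.83, SE 0.27, adjusted p 0.0884). Ndufa12 itself had 3216, 2944 and 3076 and then 2210, 1678 and 1009 (-0.99, SE 0.28, adjusted p 0.0859), so subunit and chaperone were both lower in each doxorubicin library. Nubpl, which delivers iron-sulphur clusters, had 73.2, 89.4 and 78.8 and then 71.1, 57.9 and 35.2 (-0.60, SE 0.28, adjusted p 0.161).

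Ndufaf6, needed for early assembly of the membrane arm, was the assembly factor whose groups overlapped. It had 103, 94.8 and 103 in the vehicle libraries and 106, 42.3 and 38.5 in the doxorubicin libraries (-0.83, SE 0.37, adjusted p 0.149). Replicate 1 was above every vehicle library, and replicates 2 and 3 stood at 42.2% and 38.4% of the vehicle mean. The value depended on the library left out. It was -0.64 without replicate 2 (limma adjusted p 0.310), -0.57 without replicate 3 (adjusted p 0.370) and -1.29 without replicate 1, the library above vehicle (adjusted p 0.00157).

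Subunits and assembly factors were then compared directly. The subunit median of -0.92 and the assembly factor median of -0.83 differed by -0.084. The difference between these medians was -0.18, 0.098 and -0.14 in doxorubicin replicates 1, 2 and 3, so its sign was not the same in the 3 libraries. Quantile normalization turned it to 0.12. The summed assembly factor count was 3.08%, 3.26% and 3.59% of the summed subunit count for the vehicle libraries, against 3.57%, 2.93% and 3.79% for the doxorubicin libraries, and these ranges overlap. No separation of the 2 classes beyond the spread between libraries was seen, and the members were chosen with earlier results known, so no p is given for their scores.

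The proportion of complex I to the other respiratory complexes was also set against the libraries. The summed subunit count was 30.3%, 31.2% and 30.04% of the sum of 41 subunit genes of complexes II to V in vehicle and 30.2%, 28.8% and 30.3% in doxorubicin libraries. These ranges overlap although the subunit sum itself was 96933 to 111887 in vehicle and 75281, 58454 and 34708 in doxorubicin libraries. Against 15 genes of general mitochondrial function, such as Cs (citrate synthase) and Vdac1 (a pore of the outer membrane), the sum was 118%, 107% and 97.3% and then 107%, 116% and 102%, again overlapping. Against the 20 contractile genes it was 14.4%, 12.1% and 11.03% and then 11.4%, 22.6% and 16.2%. Doxorubicin replicates 2 and 3 were thus above the vehicle range and replicate 1 within it. As a share of all normalized counts, the subunit sum was 1.55%, 1.40% and 1.29% in vehicle and 1.16%, 0.963% and 0.642% in doxorubicin libraries, without overlap.

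The median log2 differences of the related lists stood close to those of complex I. They were -0.88 for the 41 subunits of complexes II to V (40 lower without overlap), -0.85 for 31 tested assembly factors of those complexes (29 without overlap) and -0.95 for the 15 general mitochondrial genes (14 without overlap). The 20 contractile genes had a median of -0.99, with 17 without overlap. Of all genes tested, 22.6% were lower without overlap. A further 7 complex I genes outside the 46, among them the assembly factors Foxred1, Acad9, Tmem70, Tmem186, Ndufaf8 and Dmac1, were all lower without overlap, with a median of -0.82. Tmem70, which acts on complex I and on ATP synthase, had the largest of these differences at -0.91 and Ndufaf8 the smallest at -0.49. Whether complex I differs from these lists was not tested.

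**Figure D4:**
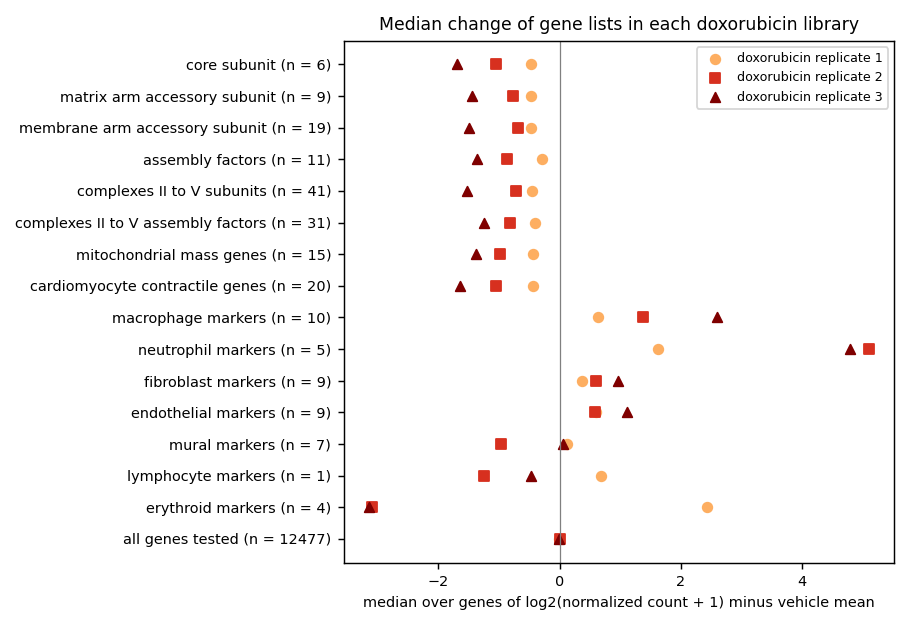
Each symbol is the median, over the genes of a list, of log2(normalized count + 1) minus the vehicle mean in 1 doxorubicin library. The complex I classes lie left of 0 beside the other mitochondrial and contractile lists, between -1.69 and -0.29, the macrophage, neutrophil, fibroblast and endothelial markers lie right of 0 in all 3 libraries, and the mural, lymphocyte and erythroid markers lie on both sides of 0 (in replicates 1, 2 and 3, mural 0.12, -0.97 and 0.06, erythroid 2.43, -3.10 and -3.15, and Cd4, the tested lymphocyte marker, 0.67, -1.25 and -0.48). All genes tested lie near 0.

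Transcripts of Xist and of the Y-linked gene Ddx3y split the libraries across the treatment groups. Xist was high in 3 libraries (vehicle 3, doxorubicin 1 and doxorubicin 3), and Ddx3y in the other 3. All 46 genes were lower within each class, with a median of -0.88 among the libraries high in Xist and of -0.85 among those high in Ddx3y. One group in each class is a single library, so these are values without a test.

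Abundant members tended to have larger differences. Across the 46 genes the Spearman correlation of the difference with the log2 vehicle level was -0.46, and across 12076 tested genes with an annotated transcript it was -0.39. With transcript length it was -0.12 for the members and 0.11 for all. Complex I transcripts are short, with a median of 763 bases for the subunits and 1573 for the assembly factors, against 3106 for all tested genes. These correlations are across genes measured in the same libraries and describe them only. The vehicle values enter both the difference and the vehicle level, and noise in them makes the correlation of those quantities more negative.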

How the data were processed

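RNA was sequenced from 6 cardiomyocyte preparations, 3 vehicle and 3 doxorubicin, grouped by their titles. Per the labels, reads were aligned with STAR to mm10 with RefSeq genes in BaseSpace, and the submitters' processing notes name STAR 2.6.1a and Salmon. The table the authors deposited holds a non-negative signal, normalized counts of reads for each gene. The sources used here do not state its normalization, strand use or counting settings. Median-of-ratios factors computed from the deposited values were 1.006 in every library. Low values lay within 0.1 step of whole multiples in 80.3% to 92.4% of cases, too few for tests on reads.

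Tests used limma (3.58.1, under R 4.3.3) on log2(value + 1), with a mean-dependent prior variance, for genes with a mean of at least 10, two-sided, at a Benjamini-Hochberg adjusted p of 0.05. The script was tested on simulated data. Members, lists and alternatives were chosen with earlier results of these data known. All 46 members could be named, with values per library for core genes, assembly factors, the extremes and the most abundant of each accessory class, and members whose groups overlap; Ndufa12, Ndufb2, Ndufb4, Ndufb4c and BC002163 were added after their values were seen. The series text gives 3 mice per group, read here as 1 mouse per library. An exact two-sided permutation test of 3 against 3 cannot go below 0.1 and was not used. Transcript lengths, overlaps and shared windows of 50 bases came from GENCODE M21 (GRCm38, the build mm10 denotes), taking the transcript paired with a RefSeq mRNA, and coordinates from RefSeq GRCm38.p6.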

Additional observations from a re-analysis of the deposited data

How the results depend on the processing

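Without doxorubicin replicate 1, 43 members and 5127 genes of the whole table were called by limma, with library weights 40 and 4272, and without doxorubicin replicate 2 a single gene (1) that is no member. Leaving out any other library gave 0, so the members called ran from 0 to 43 and the genes called from 0 to 5127 over the 6 fits. Pseudocounts of 0.5 and 8, no filter, a minimum mean of 50, equal totals, median-of-ratios and quantile scaling, no trend, robust estimation and the Xist or Y class as a covariate gave 0 called members each. The subunit median ran from -1.14 to -0.62 and the assembly factor median from -1.09 to -0.62 when a library was left out. Equal totals moved the median of all genes to 0.30, the subunit median to -0.62 and the assembly factor median to -0.54. Of the 46 members Ndufs5 turned sign there, to 0.0483, and the other 45 did not. Quantile normalization turned the subunit minus assembly factor median from -0.084 to 0.119. Members lower without overlap numbered 38 under equal totals, where 10.0% of all genes were so, 39 under quantile normalization (21.6% of all genes) and 42 to 44 when a library was left out (24.0% to 32.9% of all genes). The replicate block gave 0 called members, with a smallest adjusted p of 0.115. Deviations of same-numbered libraries from their group means correlated at -0.128, 0.0331 and -0.0928. Differently numbered libraries gave -0.183 to 0.223. With 3 libraries per group these values cannot decide whether the numbers pair the libraries. The block changed no call. The lowest depth behind a member's value was about 24 reads, for Nubpl in doxorubicin replicate 3.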
